A study of Mus musculus with 4 samples.

Results

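The 10 genes examined here, Slc2a1, Slc2a3, Hk2, Aldoa, Tpi1, Gapdh, Pgk1, Eno1, Pkm and Ldha, carry glucose into the cell and break it down to lactate. They were taken by exact gene symbol from the 27998 genes of the count matrices, and all 10 were found. Single virus-specific CD8 T cells came from spleens of 2 chimeras, reconstituted with mixed bone marrow, on day 8 after intraperitoneal infection with the Armstrong strain of LCMV, a virus that mice clear within days. Each chimera was a sublethally irradiated Rag1-/- host, which makes no T or B cells of its own, given a 1:1 mix of WT marrow (CD45.1) and Bcl3-/- marrow (CD45.2), all on the C57BL/6 background. CD8 T cells that bound the H-2Db tetramer with the viral peptide GP33 were sorted by CD45 allele. Each animal so gave 1 WT and 1 Bcl3-/- library. By their numbers, WT1 and KO1 were taken as chimera 1 and WT2 and KO2 as chimera 2. Bcl3 encodes Bcl-3, an atypical IκB protein that works with NF-κB subunits in the nucleus. No age is given, and the germline deletion was present in every Bcl3-/- cell of the transferred marrow, T cells and others alike.

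Resting T cells take up little glucose. On activation they place more GLUT1 and GLUT3, the products of Slc2a1 and Slc2a3, in the membrane and turn to aerobic glycolysis, in which hexokinase 2 traps glucose as its phosphate, the middle enzymes split and oxidise it, and lactate dehydrogenase A reduces pyruvate to lactate. Dividing effector cells draw on this pathway most, and memory cells return to a slower metabolism. The transcription factors HIF-1α and Myc are textbook activators of many of these genes.

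HIF-1α and its partner bind the letters ACGTG, and Myc binds CACGTG, which contains it. The promoter windows used here, from RefSeq (GRCm38.p6), covered 9 of the 10 genes, all but Slc2a3, with 15 start sites in all, and 7 of the 15 windows, from 6 genes, had ACGTG on either strand within 250 bases before the start site. Over all distinct RefSeq windows of that length, 16.7% held ACGTG and 6.04% held CACGTG. The windows with at least 2 matches are printed here. In these cells Pgk1 varied most between libraries, and Ldha was high where most other enzymes were high. Over all cells Hk2 was the only one of the 10 with higher values in both Bcl3-/- libraries than in both WT libraries. Each window is written 5′ to 3′ on the gene's strand and ends at the base before the start site. ACGTG (on the other strand CACGT) is in capitals. The Pgk1 window is chrX:106186850-106187099 on the plus strand, the Ldha window chr7:46845554-46845803 on the plus strand and the Hk2 window chr6:82774455-82774704 on the minus strand.
Pgk1: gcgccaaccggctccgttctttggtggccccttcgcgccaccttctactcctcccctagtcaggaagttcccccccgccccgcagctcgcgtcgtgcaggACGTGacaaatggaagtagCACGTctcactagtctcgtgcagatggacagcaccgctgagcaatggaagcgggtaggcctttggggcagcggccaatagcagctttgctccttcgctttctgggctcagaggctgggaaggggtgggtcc
Ldha: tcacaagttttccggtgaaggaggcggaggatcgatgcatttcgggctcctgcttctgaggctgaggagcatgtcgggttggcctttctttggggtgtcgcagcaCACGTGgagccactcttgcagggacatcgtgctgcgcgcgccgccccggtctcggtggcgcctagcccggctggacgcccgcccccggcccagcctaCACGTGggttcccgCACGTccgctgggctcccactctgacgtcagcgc
Hk2: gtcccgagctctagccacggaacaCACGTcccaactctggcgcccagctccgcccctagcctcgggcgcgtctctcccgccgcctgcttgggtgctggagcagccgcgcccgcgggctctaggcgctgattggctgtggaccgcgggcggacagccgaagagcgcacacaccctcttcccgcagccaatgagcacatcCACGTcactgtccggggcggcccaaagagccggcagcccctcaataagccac
The Pgk1 and Hk2 windows each held 2 matches. The Ldha window held 5, counting both strands, with CACGTG present 2 times. Each CACGTG reads as a match on both strands and so counts 2 times, so the 5 are not separate sites. Slc2a1, Aldoa and Pkm each had windows with 1 match. For Aldoa 2 overlapping windows hold the same site, so this site is in 2 of the windows counted. None was found in the windows of Tpi1, Gapdh or Eno1, which says only that these letters are missing there. Tpi1 and Gapdh had the highest ratios of these genes in the cycling cells described below. A link between matches and levels was not tested. A match is a description of the sequence, and no binding was measured. In the GENCODE annotation of the same build (release M21), Pgk1 spans chrX:106187100-106203699, Ldha chr7:46841475-46855627 and Hk2 chr6:82725025-82774454.

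The libraries held 21193300 UMIs (WT1), 20358780 (WT2), 22922219 (KO1) and 22672343 (KO2), where a UMI is 1 counted transcript molecule. Barcodes that passed as cells (500 or more genes, mitochondrial UMIs no higher than 10%) numbered 4941, 8092, 5366 and 6494 in that order. Median depth was 3571, 2019, 3620.5 and 2948 UMIs per cell, so WT2 was the shallowest library. The libraries shared 37 to 63 cell barcodes in each pair, against 36.0 to 71.3 expected if barcodes were drawn independently. The labelled cell type was borne out by the summed level of Cd3d, Cd3e, Cd3g, Cd8a and Cd8b1, at 5648, 5393, 5971 and 6016 CPM (UMIs per 1000000 of the summed cells), with Cd8b1 the most abundant. B cell genes other than Ighm and Ighd, 6 genes led by Cd74, summed to 1480, 1603, 1606 and 1558 CPM, and 8 myeloid genes to 2774, 2632, 3728 and 3933 CPM, higher in both Bcl3-/- libraries. B-like cells made up 2.15%, 1.47%, 2.50% and 1.96% of cells and myeloid-like cells 2.37%, 1.82%, 4.04% and 3.30%. Myeloid-like cells were not made up alike: KO1 and KO2 had a cluster led by Lyz2 (110 and 114 cells) and one led by S100a9 (107 and 100 cells), while in WT1 and WT2 only the Lyz2 clusters (117 and 147 cells) were counted, since those with S100a9 and Retnlg (42 and 32 cells) were under the size limit of 1% of cells. Their part in differences over all cells was not tested. Values within T cell clusters are given beside the genotype results.

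Bcl3 itself overlapped between the genotypes in these counts, though it was lower in the Bcl3-/- library of each chimera. Its level over all cells was 33.2 CPM in WT1 and 108 in WT2, against 27.6 in KO1 and 86.6 in KO2. The libraries therefore fell by chimera, with both libraries of chimera 2 above both of chimera 1. Reads were counted at the 3′ end of transcripts, and the sources used here do not give which exons the deletion removes, so a count outside the deleted part checks nothing. Within T cell clusters Bcl3 was at 29.2, 108, 21.5 and 84.7 CPM in WT1, WT2, KO1 and KO2. In edgeR with chimera as a block the Bcl3 difference was -0.31 on the log2 scale (adjusted p = 0.0201), and without the block -0.33 (adjusted p = 0.837).

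Cells were clustered in each library with these 10 genes and the other glycolysis lists left out of the clustering. Clusters that took a list of marker genes were called cycling (led by Ccnb2, Lig1 or Hist1h2ap), terminal effector-like (Gzma, S1pr5, Klra3), MPEC-gene (memory precursor genes such as Tcf7, Ccr7 and Dapl1, several of which naive T cells also express) and interferon-stimulated (Ifit1). The remaining T cell clusters took no list and held 56.3%, 60.3%, 50.3% and 51.3% of cells. They came from the same tetramer sort and serve as the reference. The reference is mixed: 1 of its clusters in WT1 (1004 cells) was led by Klrg1 and Cx3cr1, which are terminal effector markers, and 1 in KO1 (878 cells) by Tcf7 and Il7r, which are MPEC markers, but fewer than 3 markers of either list reached 2-fold, as a name required. Il7r was also a leading gene of reference clusters in WT1 (646 cells, with Bcl2) and KO2 (713 cells, with Cd7). Differences between states are given as log2 ratios of (CPM + 1) to the reference clusters of the same library, with 4 libraries as the spread and no test, because the clusters were found in the same cells.

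Cells were thinned to 1000 UMIs each to compare them at 1 depth, with 25, 223, 15 and 19 shallower cells left out in WT1, WT2, KO1 and KO2. The mean was 4.38, 3.95, 3.71 and 3.52 UMIs of the 10 genes per thinned cell, with an SD over cells of 2.63, 2.41, 2.25 and 2.19. Barcodes with 1 to 20 UMIs, which carry mostly free RNA, had 0.419%, 0.375%, 0.373% and 0.330% of their UMIs in these genes, so a UMI of them does not by itself show that a cell expresses them.

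Cycling cells devoted the largest share of their transcripts to the pathway among T cell states in every library. The 10 genes together took 0.599%, 0.536%, 0.528% and 0.493% of UMIs in cycling clusters of WT1, WT2, KO1 and KO2, against 0.441%, 0.403%, 0.383% and 0.364% in the reference clusters. Terminal effector-like clusters were lowest at 0.336%, 0.330%, 0.324% and 0.294%. These 3 states did not overlap over all 12 sums. MPEC-gene clusters (mean 0.399% ± 0.041, SD, n = 4) and interferon-stimulated clusters (0.394% ± 0.058) differed from the reference (0.398% ± 0.033) by less than the spread between libraries. Of the 9 genes with a mean of at least 10 CPM, 6 were higher in cycling clusters in all 4 libraries, 1 was lower in all 4 and 2 were mixed. Erythroid genes, 5 in all, were higher in cycling than in reference clusters in WT1 (219 against 7.41 CPM), WT2 (120 against 11.02) and KO2 (986 against 34.7), led by Hba-a1 or Hbb-bs. In KO1 they were at 0.862 against 2.29 CPM. The part of erythroid RNA in the cycling values was not tested. Among all 6790 genes with a mean of at least 10 CPM, 32.8% were higher and 30.4% lower in all 4 libraries. A shift in a fixed direction was therefore common, and the median ratio was 0.43 for the 9 genes and 0.0018 for all genes.

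**Figure D1:**
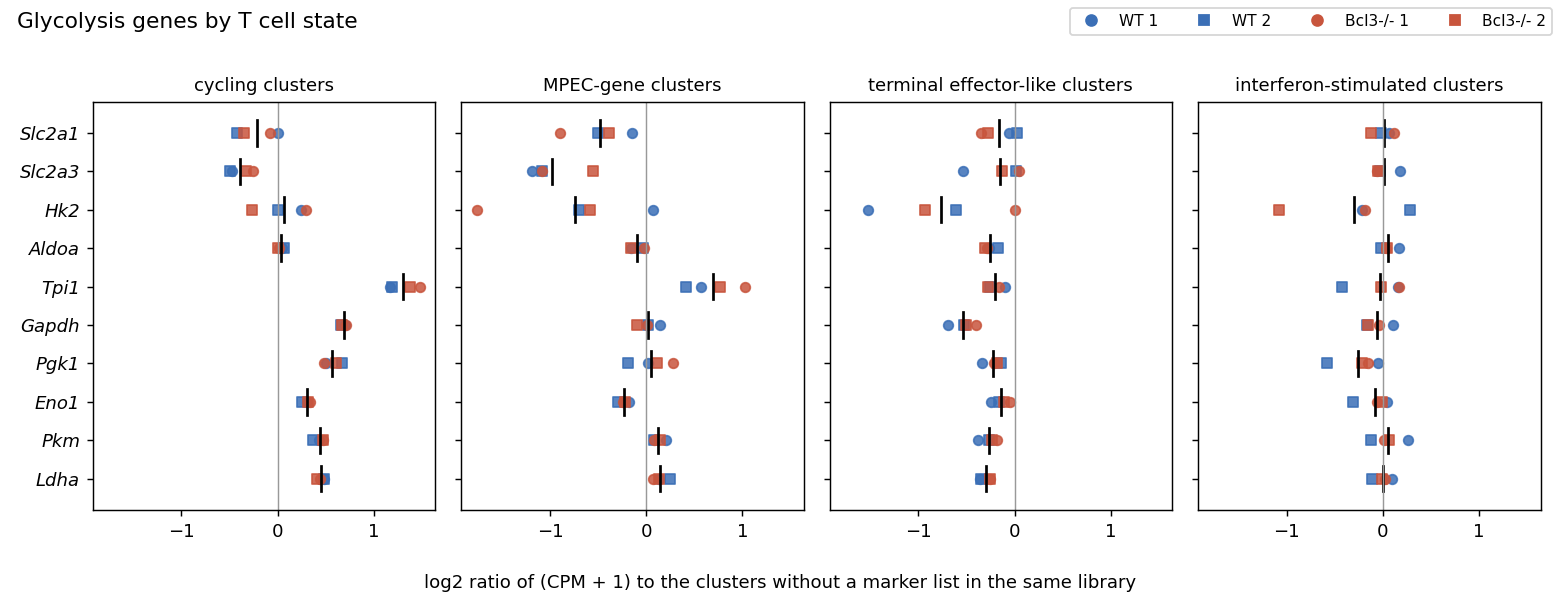
Log2 ratio of (CPM + 1) in each T cell state to the clusters without a marker list of the same library, for the 10 glycolysis genes. Each point is a library (blue WT, red Bcl3-/-, circle chimera 1, square chimera 2) and the black bar is the mean of 4, with Tpi1 in cycling clusters the farthest from 0 on the right (mean 1.30) and Slc2a3 in MPEC-gene clusters the farthest on the left among genes of at least 10 CPM (mean -0.98).

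In cycling clusters neither glucose transporter was higher than the reference in all 4 libraries, and Hk2 was too scarce to compare. Slc2a3 (GLUT3) was at 44.6, 45.4, 38.3 and 43.2 CPM in the reference clusters and at 31.8, 32.0, 31.9 and 34.3 CPM in cycling clusters, a mean log2 ratio of -0.39 ± 0.12 (SD, n = 4). Every cycling value lay below every reference value. Among T cell states its mean was lowest in MPEC-gene clusters, at 19.1, 20.9, 17.5 and 29.3 CPM (log2 ratio -0.98 ± 0.29), again below the reference in all 4 libraries. Slc2a1 (GLUT1) was also lower in MPEC-gene clusters in all 4, at 19.9, 18.7, 11.7 and 21.1 CPM against 22.2, 26.8, 22.5 and 27.9. Its cycling values of 22.2, 19.8, 21.3 and 21.6 CPM overlapped the reference. Hk2, the gating hexokinase, was scarce everywhere, with 57 to 107 UMIs per library in all reference clusters together, or 5.71, 5.94, 8.97 and 10.3 CPM. In cycling clusters it was at 6.94, 5.94, 11.2 and 8.34 CPM, which overlapped. Myeloid-like cells held more of it, at 21.7, 18.8, 30.05 and 25.0 CPM, and B-like cells 0 to 4 UMIs per library.

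Among enzymes of the middle of the pathway Tpi1 changed most between states. Triosephosphate isomerase, its product, interconverts the 3-carbon sugars. Tpi1 was at 64.3, 59.9, 46.2 and 48.2 CPM in the reference clusters and at 146, 138, 130 and 126 CPM in cycling clusters (log2 ratio 1.30 ± 0.15, a 2.46-fold mean). MPEC-gene clusters came second at 96.1, 80.2, 95.3 and 82.9 CPM (log2 ratio 0.70 ± 0.26). The order of cycling, MPEC-gene and reference clusters held in each library without overlap, whereas interferon-stimulated clusters (54.0 ± 12.3 CPM, n = 4) and reference clusters (54.6 ± 8.81) did not differ beyond their spread. With each cell thinned to 1000 UMIs the cycling ratio was 1.04, and 0.99 without the cells above the 95th percentile of UMIs, where doublets would lie.

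Gapdh, which oxidises glyceraldehyde phosphate and yields NADH, separated the states in both directions. It was at 1051, 879, 1099 and 1054 CPM in the reference clusters, 1709, 1385, 1803 and 1673 in cycling clusters and 652, 609, 833 and 740 in terminal effector-like clusters. These 3 states did not overlap over all 12 sums. The mean log2 ratio was 0.68 ± 0.03 in cycling and -0.53 ± 0.12 in terminal effector-like clusters. The counts of Gapdh could miss reads shared with its copies, since 62.5% of the last 400 bases of its longest transcript matched other annotated genes at 98% identity or more.

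The enzymes at the end of the pathway moved together. Ldha was at 811, 758, 690 and 686 CPM in the reference clusters and 1130, 1059, 933 and 911 in cycling clusters (log2 ratio 0.45 ± 0.04). Pkm, encoding the pyruvate kinase that makes pyruvate, went from 689, 757, 555 and 615 to 928, 979, 766 and 854 CPM (0.43 ± 0.05). Eno1 (enolase) had a ratio of 0.30 ± 0.04 and Pgk1 (phosphoglycerate kinase, the first step to yield ATP) one of 0.56 ± 0.08. All 4 genes were higher in cycling clusters in every library. Aldoa, whose aldolase splits the 6-carbon sugar, was the exception among the enzymes, with cycling values of 708, 613, 595 and 571 CPM against 685, 584, 589 and 571 in the reference (0.03 ± 0.03).

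In terminal effector-like clusters 7 of the 9 genes were lower in all 4 libraries and none was higher, against 25.5% and 11.1% of all 6790 genes. The 7 were the enzymes Aldoa, Tpi1, Gapdh, Pgk1, Eno1, Pkm and Ldha, with mean ratios from -0.14 (Eno1) to -0.53 (Gapdh), and Slc2a1 and Slc2a3 were mixed. The median over the 9 genes was -0.22, and -0.23 without WT1, whose reference holds the Klrg1 cluster. MPEC-gene clusters split the pathway: Tpi1, Pkm (0.13) and Ldha (0.15) were higher in all 4 libraries, and Slc2a1, Slc2a3, Aldoa and Eno1 lower, against a background of 17.8% higher and 19.9% lower. Interferon-stimulated clusters showed 1 gene lower in all 4 libraries, Pgk1 (-0.25), and none higher, against 16.9% and 11.5%.

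The share of UMIs in the 10 genes also differed between clusters of 1 state. Among cycling clusters the cluster led by Lig1 and other DNA replication genes had the highest share in each of the 3 libraries that had one, at 0.641% (WT1), 0.576% (KO1) and 0.561% (KO2). It also had the highest Tpi1 of the cycling clusters, at 181, 173 and 164 CPM. Clusters led by the mitotic gene Ccnb2 were at 0.587%, 0.496%, 0.525% and 0.496% in WT1, WT2, KO1 and KO2, with Tpi1 at 109, 108, 108 and 91.1 CPM. Clusters led by Hist1h2ap, with both S phase and mitosis markers, were the lowest cycling clusters in WT1 (0.535%), KO1 (0.432%) and KO2 (0.442%) and the higher of the 2 in WT2 (0.558%). Among the reference clusters, those led by Ggt1 had 0.521% (WT1), 0.406% (WT2), 0.439% (KO1) and 0.453% (KO2). Clusters with Il7r among their 2 leading genes, the receptor for the survival cytokine IL-7, were lower at 0.369% (WT1), 0.319% (KO1) and 0.278% (KO2). Other reference clusters reached further, with the Asb2 cluster of WT2 at 0.455% and the Madd cluster of WT1 at 0.308%, and in KO1 and KO2 the Ggt1 clusters lay above the Hist1h2ap cycling clusters. Depth moved with the share: median UMIs per cell were 4493.5 and 3211 in the Ggt1 and Il7r clusters of WT1, 4552 and 3182.5 in KO1, and 2924.5 and 2222 in KO2. Its part in the difference was not tested. The Ggt1 cluster of KO2, 284 cells, also had the highest Slc2a1 of the T cell clusters, 47.3 CPM.

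**Figure D2:**
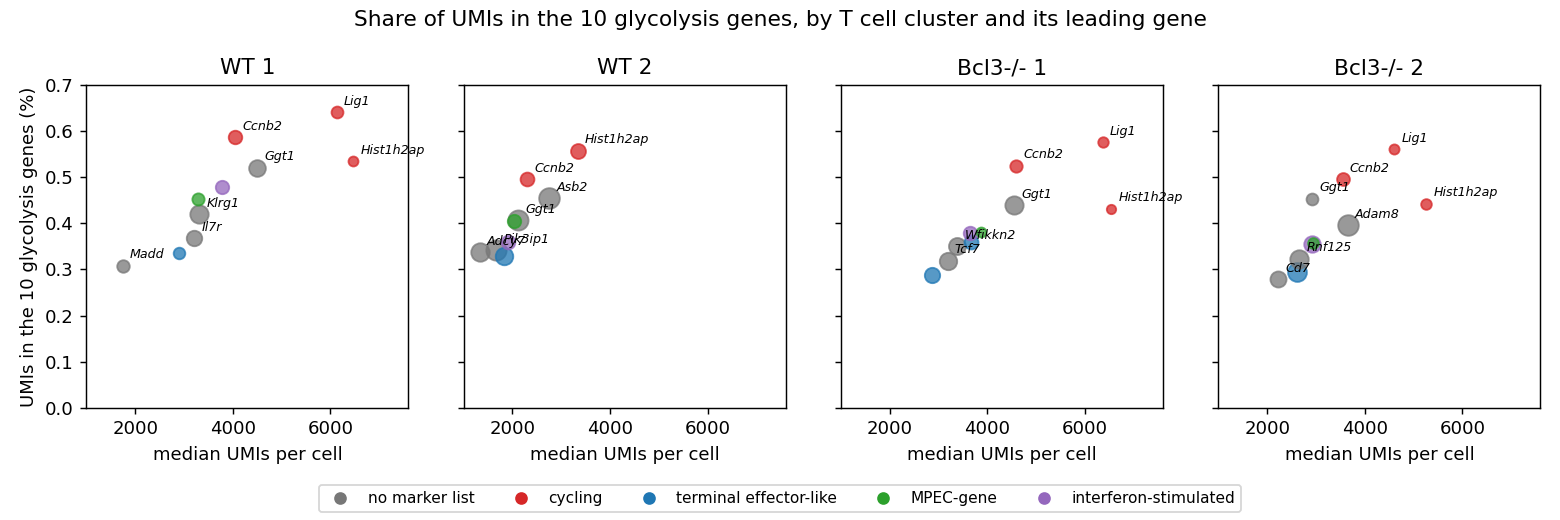
Share of UMIs in the 10 glycolysis genes (percent) against median UMIs per cell for each T cell cluster, in 4 panels by library. Point size follows the number of cells and colour the state, and the leading gene is written beside cycling clusters and clusters without a marker list, with the Lig1 cluster on top in WT1 (0.641%), KO1 (0.576%) and KO2 (0.561%).

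Over the 20 sums of 5 T cell states in 4 libraries, centred within library, Gapdh, Pkm and Ldha were correlated at r = 0.97 in each pair, Tpi1 with Pgk1 at 0.90, and Slc2a1 with Slc2a3 at 0.77. Each transporter was near 0 or negative with Gapdh (-0.11 and -0.19) and Tpi1 (-0.45 and -0.53). Both were also negative with Pkm, Ldha and Pgk1, but positive with Aldoa (0.19 and 0.18), Eno1 (0.21 and 0.27) and Hk2 (0.53 and 0.40). Hk2 had positive coefficients with the enzymes, from 0.13 (Tpi1) to 0.55 (Eno1), and 0.58 with the mean of the other 9 genes. Outside the lists the genes closest to the mean pattern of the 10 among 2662 genes were Slc35b1 (r = 0.96), Ostc, Pomp, Mrpl28, Dynll1, Arpp19, Sec11c, Atp5j, Cox6c and Txn1 (r = 0.95 for the last). Sums of 1 library share its depth, and these coefficients are descriptions without a test.

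Other genes of glucose metabolism were less uniform. Of 23 further glycolysis and lactate genes 9 reached 10 CPM, and 4 of them were higher and 1 lower in cycling clusters in all 4 libraries, with a median of 0.05. Slc16a1, a lactate transporter, had the largest ratio (0.59 ± 0.17), and Gpi1, which follows hexokinase, was lower (-0.37 ± 0.11). Of 16 measured genes that branch from glycolysis 9 were higher and 3 lower, led by Psat1 (1.34 ± 0.15) and Phgdh (1.01 ± 0.06), the first steps of serine synthesis. Txnip, which restrains glucose uptake, was lower in cycling clusters (-0.76 ± 0.16), as was Pdk1 (-0.76 ± 0.22), a pyruvate dehydrogenase kinase gene. In MPEC-gene clusters Myc (1.53 ± 0.40), Pdk1 (1.12 ± 0.22), Ddit4 (0.70 ± 0.23) and Hif1a (0.45 ± 0.24) were higher in all 4 libraries, and in terminal effector-like clusters Myc (-1.05 ± 0.42), Hif1a (-0.58 ± 0.11) and Mif (-0.66 ± 0.17) were lower in all 4. Of 10 regulators 1 was higher and 3 were lower in cycling, 3 and 2 in MPEC-gene, 3 and 3 in terminal effector-like and 1 and 1 in interferon-stimulated clusters, and of 6 HIF targets outside glycolysis 1 and 2, 3 and 1, 1 and 3, and 1 and 1. The further glycolysis and lactate genes were 1 and 2, 0 and 1, and 3 and 1, and the branch genes 1 and 4, 0 and 6, and 1 and 2, in MPEC-gene, terminal effector-like and interferon-stimulated clusters. Both are read against the same background shares as the 10 genes.

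Among the other genes with the largest ratios in their lists, cycling clusters were higher in all 4 libraries for Mif (0.49 ± 0.11), a cytokine gene, Mtor (0.64 ± 0.33), Shmt2 (0.44 ± 0.24), which moves serine carbon into the folate cycle, and Eno1b (0.32 ± 0.16), and lower for Bnip3l (-0.58 ± 0.08), a gene of mitochondrial clearance, and Rptor (-0.66 ± 0.41). MPEC-gene clusters were higher for Pgam1 (0.44 ± 0.20), a phosphoglycerate mutase, Psat1 (0.48 ± 0.10) and Mif (0.40 ± 0.10) and lower for Pfkp (-0.41 ± 0.10), Eno1b (-0.40 ± 0.19), Mxi1 (-0.36 ± 0.38), Rpia (-0.65 ± 0.75) and G6pdx (-0.43 ± 0.16), the entry to the pentose phosphate pathway. Terminal effector-like clusters were lower for Pdk1 (-0.67 ± 0.33), Ero1l (-0.69 ± 0.52), Phgdh (-0.47 ± 0.17) and Mpc1 (-0.31 ± 0.20), a mitochondrial pyruvate carrier subunit, and higher for Mxi1 (0.63 ± 0.37), a Myc antagonist. Interferon-stimulated clusters were higher for Pdk1 (0.33 ± 0.14), Hk1 (0.32 ± 0.16), Slc2a8 (0.32 ± 0.26), Max (0.34 ± 0.03) and Pgd (0.26 ± 0.09) and lower for Ddit4 (-0.22 ± 0.12), Mpc1 (-0.20 ± 0.14) and Tkt (-0.15 ± 0.04).

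The genotype comparison is Bcl3-/- against WT in the same animal. Summed over all cells, the 10 genes took 0.476% and 0.424% of UMIs in WT1 and WT2 and 0.391% and 0.374% in KO1 and KO2, so the genotypes did not overlap. Within T cell clusters the share was 0.483%, 0.421%, 0.397% and 0.374%. The share in barcodes with 1 to 20 UMIs was also lower in the Bcl3-/- library of each chimera. Pgk1 showed the widest spread of the 10, at 193 and 104 CPM in the WT libraries and 69.5 and 36.6 CPM in the Bcl3-/- libraries. Both WT libraries lay above both Bcl3-/- libraries, and chimera 1 lay above chimera 2 in each genotype. Eno1 was at 881, 825, 710 and 548 CPM, Ldha at 868, 797, 692 and 695, and Pkm at 766, 809, 585 and 655. For these 3 genes as well both Bcl3-/- libraries lay below both WT libraries. Tpi1 was at 93.5, 84.6, 64.4 and 69.6 CPM and Aldoa at 688, 595, 568 and 564, again without overlap. Hk2 went the other way, at 6.64 and 6.76 CPM in WT and 10.5 and 9.20 in Bcl3-/-, and within T cell clusters, without myeloid-like and other cells, at 5.79, 5.66, 9.08 and 8.33. Gapdh (1202, 955.5, 1154 and 1098), Slc2a1 (21.8, 24.7, 20.8 and 25.2) and Slc2a3 (37.9, 39.2, 35.7 and 39.1) overlapped over all cells. Within T cell clusters Gapdh (1224, 951, 1171 and 1096 CPM), Slc2a1 (22.1, 25.0, 21.2 and 25.6) and Slc2a3 (39.6, 41.4, 36.7 and 40.5) overlapped as well, while Aldoa (690, 583, 571 and 555) did not. Gapdh was higher in both Bcl3-/- libraries than in both WT libraries in the reference clusters (1054 to 1099 against 879 to 1051 CPM) and in terminal effector-like clusters (740 to 833 against 609 to 652 CPM), though it passed in neither by edgeR with the block (0.14, adjusted p = 0.283, and 0.28, adjusted p = 0.107). Of 6863 genes with at least 10 CPM, 20.6% were lower and 24.9% higher in both Bcl3-/- libraries than in both WT libraries, beside 6 and 1 of the 10, where Hk2 is below 10 CPM. State makeup moved with genotype: cycling cells were 17.2% and 13.0% of the WT and 10.8% and 10.6% of the Bcl3-/- libraries, and terminal effector-like cells 5.24% and 11.1% against 20.6% and 16.5%. The terminal effector-like share of WT1 leaves out its reference cluster led by Klrg1 and Cx3cr1, 20.3% of its cells, so this gap depends on the naming of clusters. A sum over all cells cannot tell fewer cycling cells from less RNA of these genes per cell, so values within states follow. There the groups did not overlap for 6 genes lower and 2 higher in the reference clusters (17.4% and 23.7% of genes), 6 and 1 in cycling (16.9% and 23.6%), 6 and 2 in terminal effector-like (17.6% and 22.6%), 3 and 0 in MPEC-gene (19.2% and 17.9%) and 3 and 0 in interferon-stimulated clusters (15.2% and 22.5%). Over all T cell clusters together it was 6 and 1 (20.4% and 24.1%). Makeup also moved with genotype inside states. In WT1, WT2, KO1 and KO2 the terminal effector markers summed to 1410, 1621, 2297 and 2447 CPM in cycling clusters. In the reference clusters they overlapped (1267, 1038, 1015 and 1132 CPM). Mitosis markers were at 110, 105, 86.2 and 79.9 CPM in the reference and overlapped in cycling clusters (1485, 1919, 1468 and 2064 CPM). Interferon-stimulated markers were lower in both Bcl3-/- libraries in reference (750, 1008, 541 and 638 CPM) and cycling clusters (715, 828, 510 and 590). So they were in terminal effector-like clusters (706, 766, 439 and 525), but they overlapped in MPEC-gene clusters (812, 966, 832 and 787). In MPEC-gene clusters effector (804, 809, 1353 and 1001) and terminal effector markers (285, 296, 494 and 432) were higher in both Bcl3-/- libraries. The part of these markers in the values within states was not tested.

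**Figure D3:**
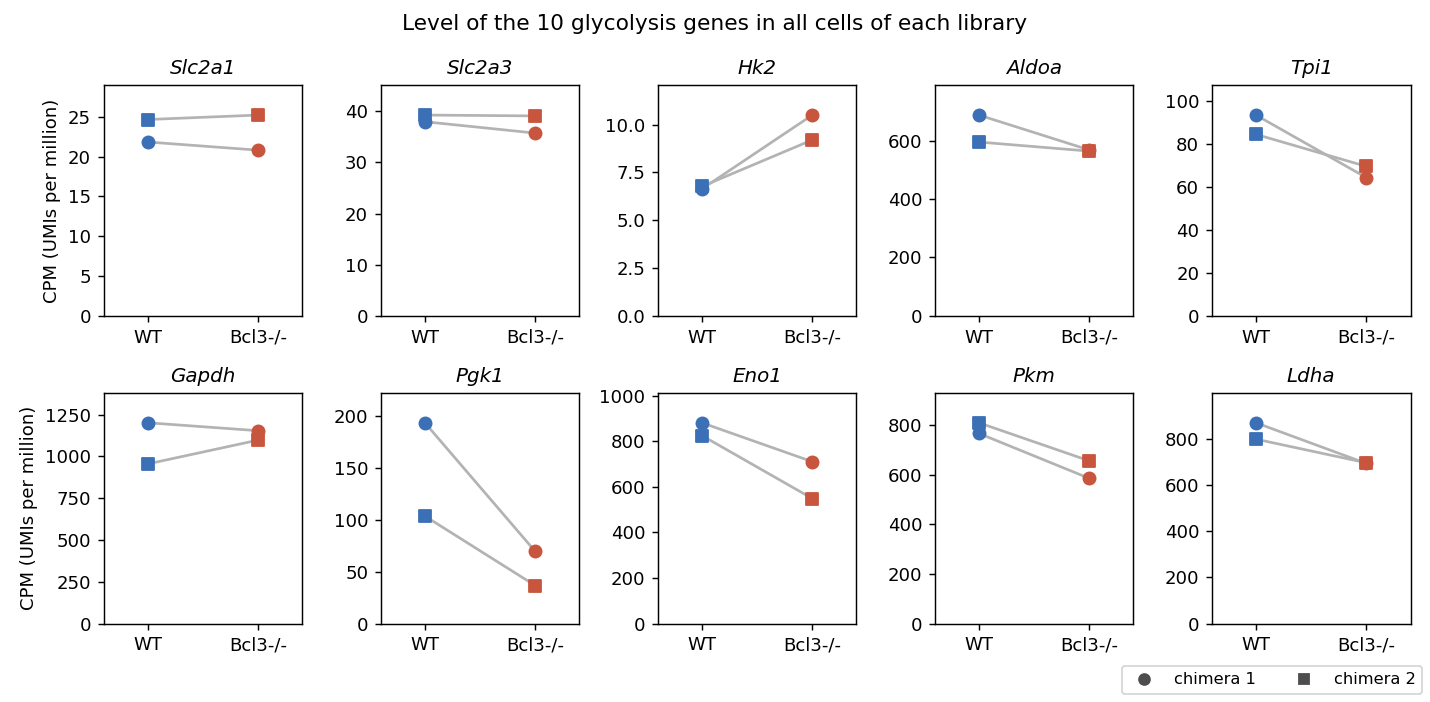
Level of each of the 10 genes in all cells (CPM, linear axis from 0) by genotype, with a grey line joining the 2 libraries of a chimera (circle 1, square 2). Lines fall from WT to Bcl3-/- in both chimeras for Aldoa, Tpi1, Pgk1, Eno1, Pkm and Ldha and rise in both for Hk2. They also fall slightly in both for Slc2a3, whose groups overlap, and Pgk1 spans 36.6 to 193 CPM.

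Tested with edgeR on summed counts with no term for the chimera, none of the 10 genes passed an adjusted p of 0.05, where 0.0778% of 11566 genes were called lower and 0.285% higher in Bcl3-/-, 9 and 33 genes. Unadjusted p was under 0.05 for 6 of the 10 and for 1808 of the 11566 genes. The log2 fold change was -1.49 (SE 0.38, edgeR adjusted p = 0.158) for Pgk1, -0.43 (SE 0.10, adjusted p = 0.130) for Tpi1 and -0.36 (SE 0.10, adjusted p = 0.186) for Pkm. With the chimera as a block, which pairs the libraries of 1 animal, 5 of the 10 fell and none rose, where 4.84% of all genes were called lower and 4.81% higher. They were Pgk1 (-1.50, SE 0.07, edgeR adjusted p = 1.73e-08), Eno1 (-0.47, SE 0.08, adjusted p = 0.00288), Tpi1 (-0.43, SE 0.08, adjusted p = 0.00312), Pkm (-0.36, SE 0.07, adjusted p = 0.00471) and Ldha (-0.28, SE 0.07, adjusted p = 0.0227). Hk2 was at 0.54 (SE 0.16) with an edgeR adjusted p of 0.0522, and Aldoa at -0.19 (SE 0.07) with 0.108. The median over the 10 was -0.24 against 0.0073 over all genes. DESeq2 without the block called Pkm alone of the 10 (-0.38, adjusted p = 0.0301), among 128 genes higher (1.13%) and 71 lower (0.629%). Without WT1 228 genes were called and without KO1 176, Pgk1 among the latter (-2.10, edgeR adjusted p = 0.0116, 0.446% of genes lower). The value for Pgk1 ran from -2.10 (KO1 left out) to -0.94 (WT1 left out), that for Eno1 from -0.71 (KO1) to -0.23 (KO2) and that for Aldoa from -0.33 (WT2) to -0.06 (WT1). A fit without 1 library has a single library in 1 genotype, assumed to vary like the 2 of the other, so calls in such fits are no sign of stability.

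**Figure D4:**
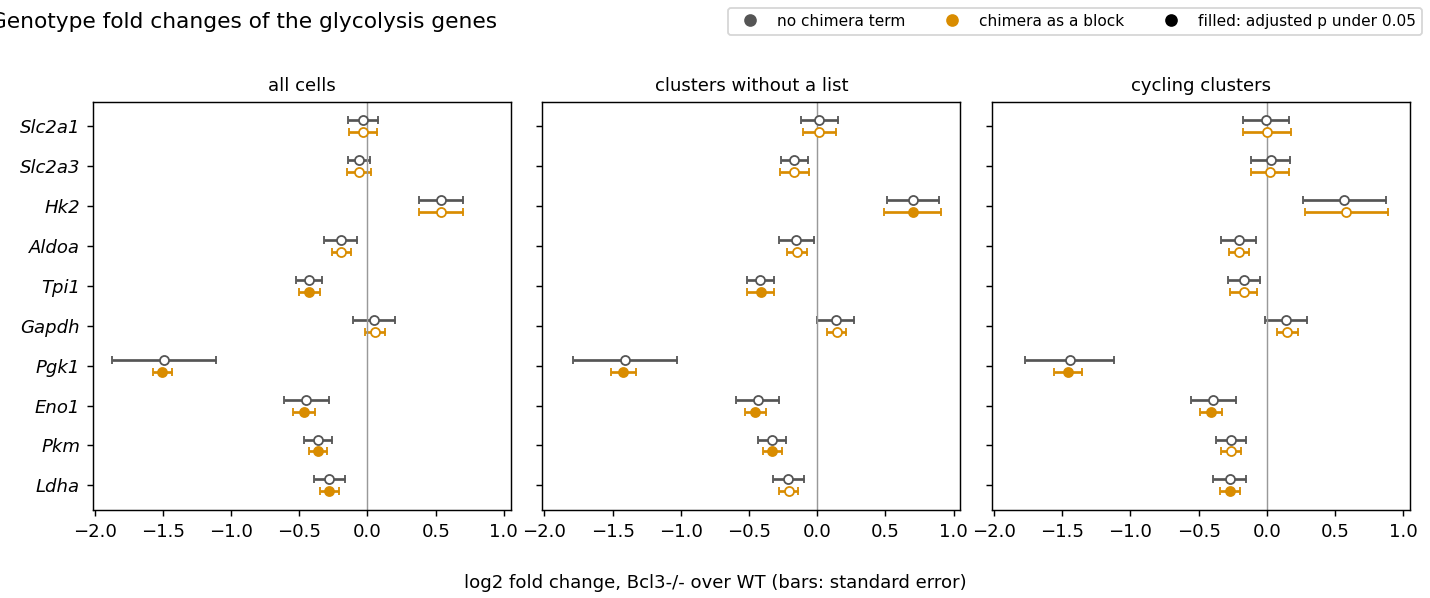
Log2 fold change of Bcl3-/- over WT for the 10 genes by edgeR with standard errors, in all cells, clusters without a marker list and cycling clusters. Grey points are fits without and orange points fits with the chimera as a block, and filled points passed an adjusted p of 0.05: 5 genes in all cells, 5 in clusters without a list and 3 in cycling clusters, only with the block.

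Pgk1 and Eno1 passed as lower, with the block, in each of the 5 T cell states when these were fitted alone. In the reference clusters 0 of the 10 passed in edgeR without the block (0.0777% of 10291 genes lower and 0.223% higher). Unadjusted p by edgeR was under 0.05 for 5 of the 10 and for 1072 of the 10291 genes. DESeq2 also passed 0 of the 10 and called 0.171% of genes lower and 0.496% higher. With the block Pgk1 (-1.42, SE 0.09, edgeR adjusted p = 1.65e-12), Eno1 (-0.45, SE 0.08, adjusted p = 0.00019), Pkm (-0.33, SE 0.07, adjusted p = 0.00272) and Tpi1 (-0.41, SE 0.10, adjusted p = 0.00759) fell and Hk2 rose (0.70, SE 0.21, adjusted p = 0.0433), where 3.01% of genes were lower and 3.27% higher. Without 1 library the genes called numbered 198 (WT1 left out), 18 (WT2), 274 (KO1) and 131 (KO2), against 31 with all 4, and Pgk1 was called without KO1 or KO2, with Eno1 also without KO1, where 1.06% (KO1) and 0.389% (KO2) of genes were lower. In cycling clusters 0 of the 10 passed in edgeR without the block (0.0539% lower and 0.205% higher of 9282). Unadjusted p by edgeR was under 0.05 for 3 of the 10 and for 782 of the 9282 genes. DESeq2 also passed 0 of the 10 and called 0.0694% of genes lower and 0.317% higher. With the block Pgk1 (-1.46, SE 0.10, edgeR adjusted p = 7.39e-08), Eno1 (-0.41, SE 0.08, adjusted p = 0.00621) and Ldha (-0.27, SE 0.07, adjusted p = 0.0457) fell, where 1.47% were lower and 1.94% higher. Without WT1, WT2, KO1 or KO2 in turn 186, 120, 233 and 118 genes were called against 24, Pgk1 among them each time and Eno1 without KO1, where 0.541%, 0.633%, 0.949% and 0.332% of genes were lower. With 1 library left out Pgk1 ran from -2.05 (KO1) to -0.84 (WT1) in the reference and from -2.00 to -0.99 in cycling clusters, and Eno1 from -0.69 (KO1) to -0.22 (KO2) and from -0.65 to -0.18, with the same libraries at the ends.

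Smaller states were added after the first results were seen, with the block. In terminal effector-like clusters Pgk1 (-1.39) and Eno1 (-0.34) were called lower by edgeR, in MPEC-gene clusters Pgk1 (-1.09) and Eno1 (-0.41), and in interferon-stimulated clusters Pgk1 (-1.35), Eno1 (-0.37) and Pkm (-0.38), where 2.03%, 0.547% and 1.54% of genes were lower and 2.04%, 1.02% and 1.34% higher. Over all T cell clusters together the block called 5 of the 10 lower (6.5% of genes) and Hk2 higher (0.59, edgeR adjusted p = 0.0264, 6.37% of genes). With B-like and myeloid-like cells left out, Pgk1 was at -1.47, Eno1 at -0.44, Tpi1 at -0.42, Pkm at -0.35 and Ldha at -0.27, close to the values over all cells. Without the block 0 of the 10 were called in each of these 4 fits (edgeR, with 3, 2, 2 and 5 at an unadjusted p under 0.05 in terminal effector-like, MPEC-gene, interferon-stimulated and all T cell clusters). Over all genes 913 of 8289, 490 of 6399, 633 of 7852 and 1538 of 11106 had such a p, in the same order.

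Whether the genotype difference itself changed between cycling and reference clusters was tested by an interaction in edgeR with the library as a term. None of the 10 passed, where 0.038% of 10532 genes were lower and 0.152% higher. Without the library term 0 of the 10 passed and 0 had an unadjusted p under 0.05, against 152 of all genes. With it 601 of the 10532 genes and 1 of the 10 had one. That gene was Tpi1, whose difference was 0.26 (SE 0.10) less negative in cycling clusters (edgeR adjusted p = 0.744). For Pgk1 the difference between states was -0.03 (SE 0.11), for Ldha -0.05 (SE 0.06) and for Pkm 0.08 (SE 0.06).

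Pgk1 values were also taken in B-like and myeloid-like clusters, which carried T cell RNA: the 5 CD8 T cell genes summed to 1349 to 1811 CPM in B-like and 1135 to 1913 CPM in myeloid-like cells, against 5393 to 6016 over all cells. Its part in the values was not tested. In B-like cells it was at 162, 131, 35.9 and 43.5 CPM in WT1, WT2, KO1 and KO2, from 16 to 58 UMIs, and in myeloid-like cells at 197, 125, 47.3 and 37.5. In the Lyz2-led myeloid-like clusters alone, which every library had, it was at 197, 125, 46.6 and 40.1 CPM. B-like cells had 8 of the 10 genes lower and 0 higher without overlap (20% and 18.2% of genes). Cycling markers moved with this count, their summed level in B-like cells being 967, 887, 326 and 315 CPM, and their part was not tested. Myeloid-like cells had 2 lower and 2 higher (20.3% and 18.4%), but no genotype difference is read from these, because S100a9-led clusters were counted in KO1 and KO2 alone. Slc2a3, for one, was at 91.9 and 96.9 CPM in those and at 9.38 to 15.5 CPM in the Lyz2-led clusters. In the T cell states the order WT1, WT2, KO1, KO2 held except in MPEC-gene clusters, where WT2 (82.4) lay just under KO1 (83.6). Eno1b, a copy of Eno1 listed as its own gene, had a like order at 38.8, 18.4, 18.1 and 7.99 CPM (edgeR with block -1.16, adjusted p = 2.17e-05), and Pgk1-rs7, a copy of Pgk1, was at 8.77, 2.55, 1.42 and 1.30 CPM. Against other annotated genes, at 98% identity or more, Pgk1 shared 68.8% of its longest transcript but none of its last 400 bases, Eno1 85.6% and 99.2% of its last 400, Eno1b 92.2%, and Pkm 65.5% and none. No such stretch was found in Slc2a1, Slc2a3, Hk2, Aldoa, Tpi1 or Ldha. The part of shared sequence in the library differences was not tested, and the levels of Pgk1, Eno1, Eno1b and Gapdh are uncertain to that extent. Pgk1 lies on the X chromosome, and Xist, the RNA of the inactive X, was at 33.8, 325, 43.9 and 343 CPM over all cells and at 9.31, 316, 13.9 and 318 in the reference clusters, so the T cells of chimera 1 and chimera 2 also differed in sex-linked transcripts. In B-like cells it was at 338, 455, 408 and 465 CPM, high in all 4 libraries, so the B-like cells of chimera 1 did not match the T cells of their own libraries and their Pgk1 levels are not read as a genotype difference. The part of sex-linked expression in Pgk1 was not tested.

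**Figure D5:**
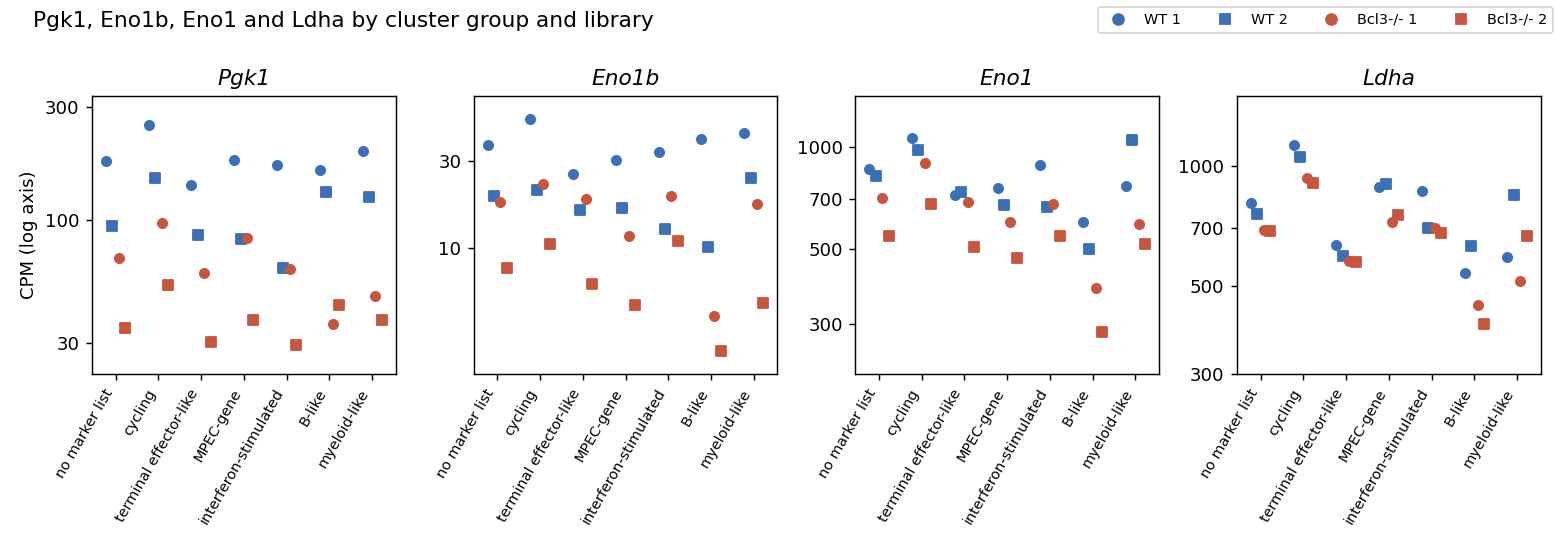
Levels of Pgk1, Eno1b, Eno1 and Ldha (CPM, log axis) in each cluster group and library (blue WT, red Bcl3-/-, circle chimera 1, square chimera 2). For Pgk1 the points keep nearly the same vertical order in all 7 groups, B-like and myeloid-like cells included, and span from 29.5 to 252 CPM.

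Other glucose genes moved in a few cases only. No gene of the 4 further lists passed in edgeR without the block over all cells, where 0.285% of genes were higher and 0.0778% lower, while DESeq2 without the block called 1, Rpia (1.204 on the log2 scale, adjusted p = 0.00634). With the block, where 4.84% of all genes were lower and 4.81% higher, 2 of 20 tested glycolysis and lactate genes fell, Eno1b and Pfkp (-0.34, edgeR adjusted p = 0.00542), the platelet-type phosphofructokinase, and none rose. Of 14 regulators Hif1a fell (-0.29, edgeR adjusted p = 0.0252) and Txnip rose (0.31, adjusted p = 0.0109). Of 10 HIF targets outside glycolysis 1 fell, Mif (-0.35, edgeR adjusted p = 0.00499), and of 17 genes in the branches Phgdh (-0.30, edgeR adjusted p = 0.0123) and Shmt1 (-0.81, adjusted p = 0.0221) fell and Rpia (1.16, adjusted p = 0.00312) rose. In the reference clusters (3.01% of genes lower, 3.27% higher) the block called Pfkp (-0.39) and Eno1b (-1.17) lower and Rpia (1.02) higher by edgeR, and in cycling clusters (1.47% lower, 1.94% higher) Pfkp (-0.36), Eno1b (-1.13) and Mif (-0.33) lower and Rpia (1.34) higher. Terminal effector-like clusters (2.03% lower, 2.04% higher) had Mif (-0.50) and Pgls (-0.41) lower and Prkaa1 (1.38) higher, interferon-stimulated clusters (1.54% lower, 1.34% higher) Hif1a (-0.70) lower and Egln1 (1.88), whose product marks HIF-1α for degradation, higher, and MPEC-gene clusters none of the 4 lists. Over all T cell clusters (6.5% lower, 6.37% higher) Mxi1 (0.43) and Rpe (0.34) were called higher in addition to the genes called over all cells. The calls within states and over all T cell clusters were each lost in edgeR without the block at the same filter on low counts. Over all cells the medians of these lists were -0.04, 0.06, 0.01 and -0.05 in that order. Hif1a was at 74.7 and 78.7 CPM in WT and 58.0 and 69.5 in Bcl3-/-, without overlap. Mif and Phgdh also share sequence with other annotated genes, over 59.5% and 84.3% of their longest transcripts.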

How the data were processed

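The authors deposited a raw UMI count matrix for each of the 4 libraries (10x Genomics 3′ chemistry), with no normalization. The submitters' processing notes name bcl2fastq 2.17, Cell Ranger 2.2.0 and the build mm10, while for the annotation release the sources used here say nothing. The 10 genes and all gene lists were chosen with earlier results of these data known. Groups came from the genotype given with each sample, and no column of per-sample values was left unused.

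Barcodes were kept as cells from 500 genes upward and up to 10% mitochondrial UMIs. Each library was clustered alone with Seurat 5.3.0 (2000 variable genes less the glycolysis lists, 15 components, 20 neighbours, resolution 0.8). A cluster took a marker list with at least 3 of its markers at 2-fold and in 10% of cells and at least 1 among its leading 10 genes, and a T cell cluster needed a CD8 T list at 0.5 times the level of other cells or more. Names rebuilt this way may differ from the study's. No doublet caller was run. Clusters under 1% of cells and 1 unnamed cluster led by Jchain were left out of states. Cluster names used markers of which Ighm and Ighd were not analysed here.

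Counts were summed per library, or per library and state, and given as CPM (UMIs per 1000000 of the sum). Ratios between states used log2(CPM + 1) for genes with a mean of at least 10 CPM. Genotypes were compared with the edgeR 4.0.16 quasi-likelihood test (R 4.3.3) over all genes with Benjamini-Hochberg adjustment at 0.05, and with DESeq2 1.42.0 as an alternative. Libraries of the same number were taken to come from the same chimera, a match read from the numbers. The differences WT1 minus WT2 and KO1 minus KO2 correlated at r = 0.29 over 6863 genes. Fits with the chimera as a block rest on this match and are given beside those without. With 2 animals, p-values measure the spread between those animals and libraries only. The fits with the block have 1 residual degree of freedom, and edgeR borrows the spread across genes. The all-cell fits, with and without the block, were tested on simulated counts only for known fold changes. Alternatives were the block, DESeq2, no filter on low counts, leaving out each library, thinning to 1000 UMIs per cell, T cell clusters only, other clusterings, at least 800 genes per cell, cells below the 95th percentile of UMIs and TMM factors. Fits on single smaller states were chosen after seeing the data. The text names all 10 genes, the 10 genes most like their mean pattern among genes of at least 50 CPM, and list genes called in a genotype test and those among the 3 largest ratios of a list in a state (where these had no common direction in 4 libraries they are left out). Shared sequence was found with BLAST 2.17.0 among GENCODE M21 transcripts (98% identity over at least 98 bases), and promoters came from RefSeq, GRCm38.p6, which was matched by symbol. Pgk1-rs7 and Xist were named after their values were seen.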

Additional observations from a re-analysis of the deposited data

Results flagged for a closer look

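For 3 results the difference between genotypes had 1 sign in both chimeras in 1 state and the opposite sign in both chimeras in another. The log2 ratio of Bcl3-/- to WT for Slc2a1 was 0.04 on average in the reference clusters and -0.26 in terminal effector-like clusters, a difference of -0.30 that was not tested. For Slc2a3 it was -0.14 in the reference and 0.05 in cycling clusters, a difference of 0.19, for which the edgeR interaction gave 0.21 with an adjusted p of 0.933. For Slc2a3 it was also 0.05 in cycling and -0.28 in interferon-stimulated clusters, a difference of -0.33 that was not tested.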

How the results depend on the processing

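The median log2 ratio of the genes to the reference clusters was 0.43 in cycling clusters, and 0.40 at resolution 1.2, 0.37 with cells thinned, with at least 800 genes or with TMM factors, 0.31 without the cells of most UMIs, and 0.42 to 0.44 with 1 library left out. In MPEC-gene clusters it was 0.02, and -0.052 with the lists in the clustering, -0.033 at resolution 0.4, -0.10 thinned, -0.085 with TMM and -0.02 to 0.03 with 1 library left out. In interferon-stimulated clusters it was -0.0015, and -0.10 at resolution 1.2 and with at least 800 genes, and -0.05 to 0.02 with 1 library left out. In terminal effector-like clusters it was -0.22, and -0.25 to -0.22 with 1 library left out. Genes called by genotype over all cells numbered 42, and 1116 with the chimera block, 199 by DESeq2, 69 thinned, 1429 in T cell clusters with the block, 74 and 337 in terminal effector-like clusters without and with it, 4 and 226 in interferon-stimulated, 100 in MPEC-gene clusters with it, and 40 to 228 with 1 library left out. Of the 10 genes 0 were called, and 5 with the block, 1 by DESeq2, 6 in T cell clusters, 2 in terminal effector-like, 3 in interferon-stimulated and 2 in MPEC-gene clusters with the block, and 0 to 1 with 1 library left out. In the reference clusters 31 genes were called, and 647 with the block (5 of the 10), 74 by DESeq2, 170 with no filter (1 of the 10) and 18 to 274 with 1 library left out (0 to 2). In cycling clusters 24 were called, and 316 with the block (3), 39 by DESeq2, 207 with no filter (1) and 118 to 233 with 1 library left out (1 to 2). The interaction gave 20 calls and 0 without its block (edgeR, 152 at an unadjusted p under 0.05). The cause of these changes was not tested. Of 328 values of single genes 16 changed sign, none past the threshold. Over all cells these were Slc2a1 (0.02 without WT2, 0.050 without KO1, lowest -0.12), Gapdh (-0.14 and -0.05, highest 0.25), Slc2a3 in MPEC-gene clusters (0.27, 0.24 with the block), Tpi1 there (0.011, 0.032) and Hk2 in interferon-stimulated clusters (-0.021). In cycling clusters they were Slc2a1 (0.000222 with the block, 0.11 without WT1, 0.02 without KO2, lowest -0.11) and Gapdh (-0.028 without WT2, highest 0.33), and in the reference Slc2a1 (-0.08 without WT1, -0.093 without KO2, highest 0.12) and Gapdh (-0.024 without WT2, highest 0.30). Hk2 had only 130 to 229 UMIs per library, and the part of depth in the values of Hk2 and Slc2a1 was not tested.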

Other observations

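The small clusters led by Jchain, which encodes the joining chain of antibodies and marks plasma cells, took 0.275% (WT1), 0.254% (WT2), 0.215% (KO1) and 0.247% (KO2) of their UMIs in the 10 genes, the lowest share of any cluster in WT1, WT2 and KO1, while the B-like cluster of KO2 was lower at 0.239%. Their median depth was 6797, 4814, 7445.5 and 6220.5 UMIs per cell in the same order. These clusters held 40 to 78 cells and were not tested against any other group.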
